A study of Mus musculus with 6 samples.

Results

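Blood endothelial cells line the vessels that supply a tumour, and the 39 genes described here are transcripts by which such cells are known. They were taken from a list of gene names that was chosen with earlier results of these data known. A gene counted as measured where an Affymetrix probe set was annotated to it alone, and 38 of the 39 were, among 19937 genes in all. Selp, which encodes the adhesion receptor P-selectin, was not measured here. The tumours came from female FVBN mice carrying MMTV-PyMT, a transgene in which a mouse mammary tumour virus promoter drives the polyoma middle T antigen in mammary epithelium, so the vessels are tissue of the host mouse and not the cells the transgene was built to transform. Tumour burden was scored at an age of 75 to 90 days, before dosing began. The mice were injected into the abdomen once a day with DMSO as vehicle (3 mice) or with TMP195, an inhibitor of class IIa histone deacetylases, at 50 mg/kg (3 mice). One description gives 5 days of dosing and another gives 2 weeks. A single whole tumour was taken from each mouse, so each value below is 1 animal. In a whole tumour, fewer endothelial cells and less RNA per endothelial cell cannot be told apart.

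Endothelial cells hold together through junctions built on VE-cadherin, claudin-5 and PECAM-1, and carry sialomucins and C-type lectin receptors on the surface that faces the blood. Their identity is set by ETS factors such as ERG and by SOXF factors. Under inflammatory signals they display selectins and immunoglobulin-type adhesion molecules that capture leukocytes, and in growing tumours sprouting endothelium secretes factors such as apelin and ESM1. The list is not exclusive to this cell type. Cd34 and Eng are also made by stromal cells, Podxl by some epithelial cells, Tal1 and Lyl1 by blood-forming cells, Vwf by platelets, and Icam1 and Vcam1 by many cells.

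The 38 measured genes divided nearly evenly in direction between the dosing groups. On the log2 intensity scale 20 genes were higher and 18 lower under TMP195, with a median difference of 0.032 (TMP195 minus vehicle), against a median of -0.0014 with 49.5% higher and 50.5% lower over all genes. Single differences ran from -0.36 for Sox17, a SOXF transcription factor, to 0.26 for the sialomucin gene Podxl. No member passed an adjusted p of 0.05 in limma, a moderated linear model fitted to all 19937 genes with Benjamini-Hochberg adjustment, where the share called over all genes was 0%. Without adjustment, 1 of the 38 had a limma p under 0.05 (2.63%) against 2.52% of all genes, with 0 higher (1.18% of all genes) and 1 lower (1.34%). The 3 tumours of a group lay wholly beyond the 3 of the other in 4 of the 38 (10.5%), against 6.68% of all genes. Of these, 3 were higher under TMP195 (3.47% of all genes) and 1 was lower (3.21%). None differed by 1.5-fold or more, a size reached by 1.27% of all genes. The lowest adjusted p of any member was 1.00, and over the alternative fits it was never below 0.963. All 38 intervals (95%) lay within 1 log2 unit, or 2-fold, of no difference, and 32 of the 38 within 1.5-fold. The sign of the median rested on single tumours, since it was -0.027 without vehicle tumour 2, -0.0096 without TMP195 tumour 1 and 0.10 without vehicle tumour 3, and it was 0.009 without vehicle tumour 1 and 0.087 without TMP195 tumour 2.

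**Figure D1:**
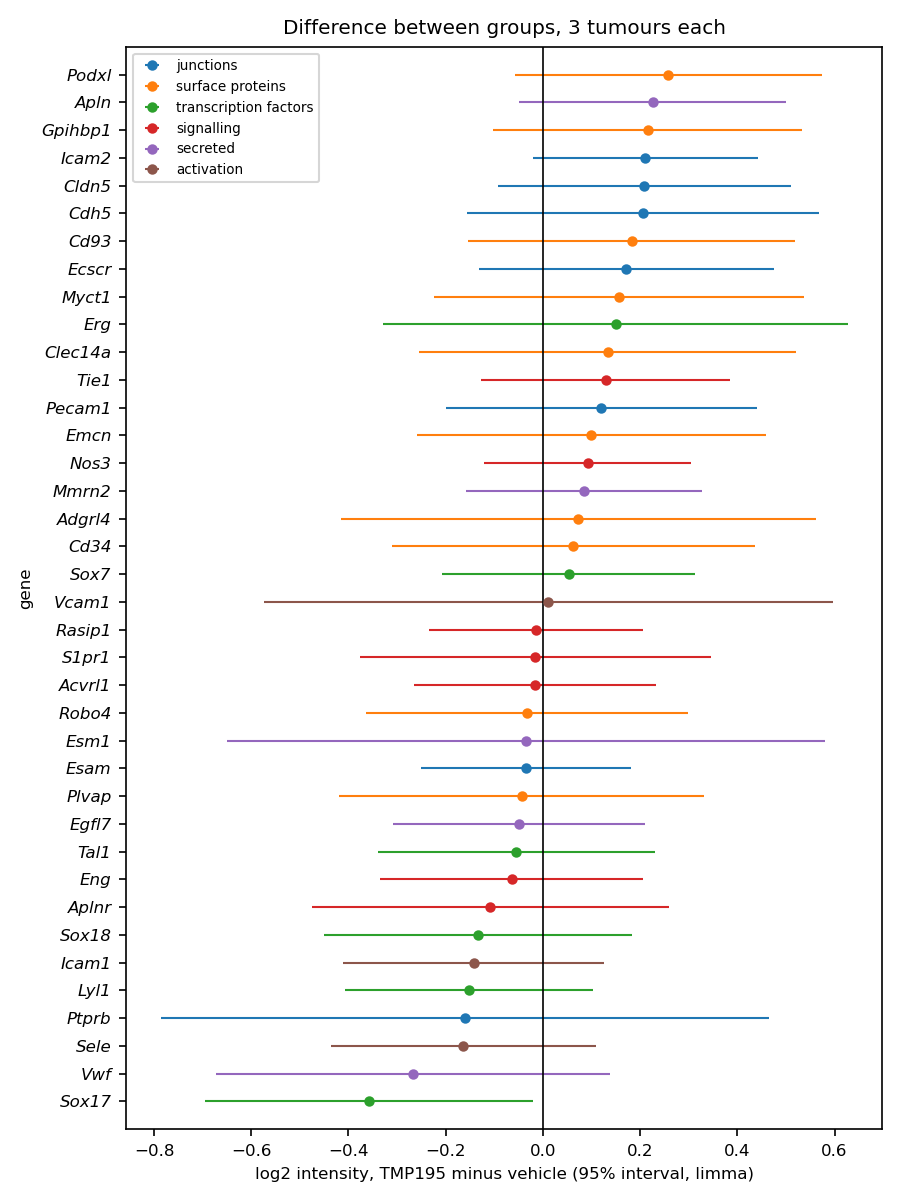
Difference in log2 intensity, TMP195 minus vehicle (horizontal axis), for each of the 38 measured endothelial genes (vertical axis, sorted), with 95% moderated intervals from limma as lines and colours for the subgroups. Only the interval of Sox17 lies wholly on one side of 0, and the point estimates run from -0.36 to 0.26.

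Single tumours held the ends of the range for many members. Vehicle tumour 3 held the highest value of 15 of the 38 genes (39.5%, against 10.5% of all genes), and vehicle tumour 2 the lowest value of 16 (42.1%, against 18.7%). Vehicle tumour 3 lay above vehicle tumour 2 in 33 of the 38 genes, with a median gap of 0.18, and TMP195 tumour 1 lay above vehicle tumour 2 in 32, with a median gap of 0.16. Over all genes these shares were 44.5% and 44.0%. TMP195 tumour 2 was highest in 7 genes (18.4%, against 25.4% of all genes) and lowest in another 7 (18.4%, against 22.4%). Both shares were below those over all genes. Each of these compares single animals and has no test. The highest and the lowest tumour by these counts were thus both dosed with vehicle.

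**Figure D2:**
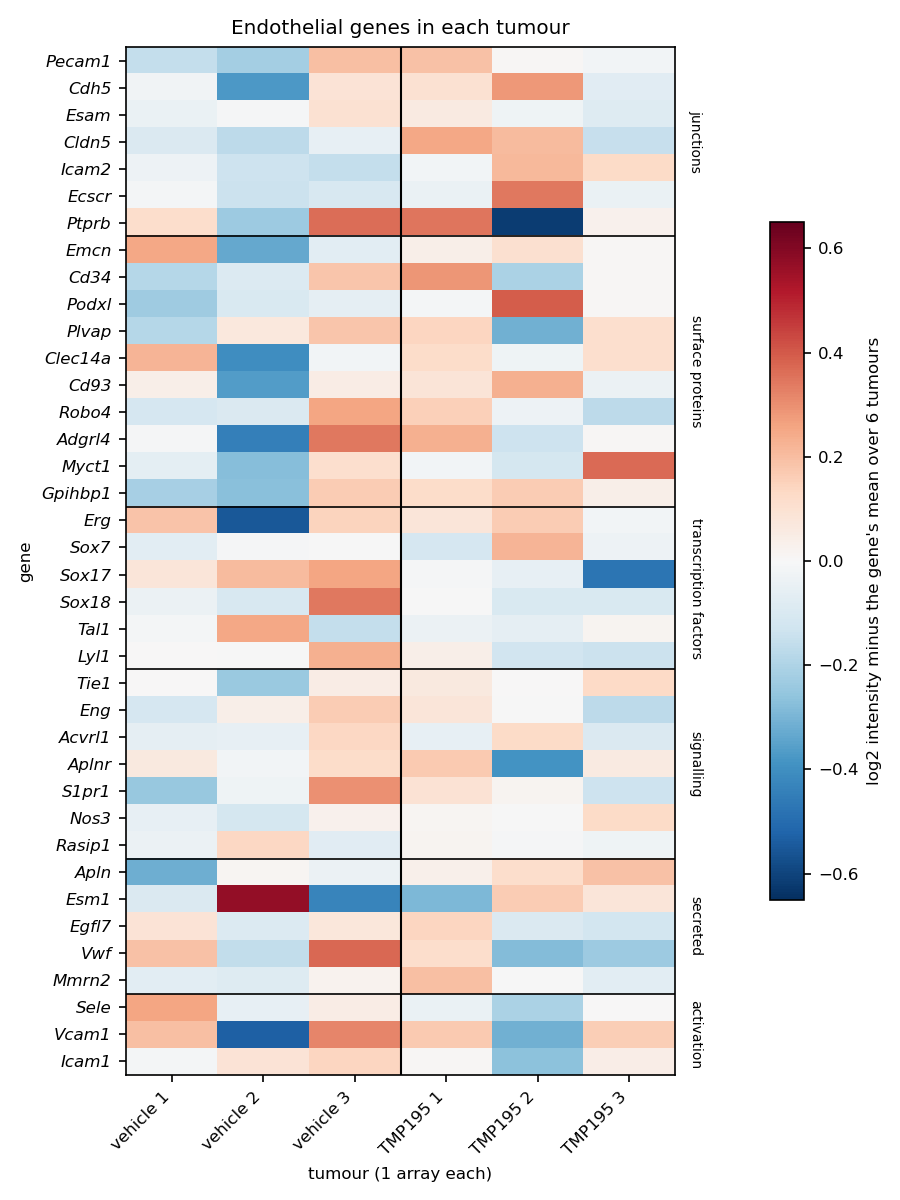
Log2 intensity of each endothelial gene (rows, in subgroups divided by lines) in each tumour (columns, 1 array each, vehicle left and TMP195 right of the line), minus that gene's mean over the 6 tumours; red is above and blue below the mean. The column of vehicle tumour 2 is mostly blue, with Esm1 as the clearest exception, and that of vehicle tumour 3 is mostly red.

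**Figure D3:**
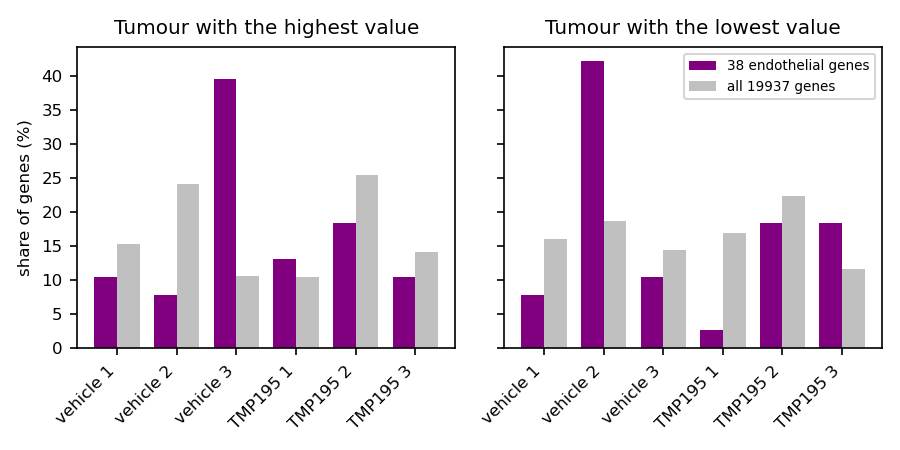
Share of genes, in percent (vertical axis), for which each tumour (horizontal axis) held the highest value (left) or the lowest (right), for the 38 endothelial genes in purple and all 19937 genes in grey. Vehicle tumour 3 stands out on the left at 39.5% and vehicle tumour 2 on the right at 42.1%.

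The promoters of 4 members that were lowest in vehicle tumour 2 are shown because these genes had their lowest value in the same tumour. They are the 4 with the widest gap between vehicle tumour 2 and the mean of the other tumours, among the 6 such members with a single annotated start in the RefSeq promoter table (build GRCm38.p6). The gap was 0.53 on the log2 scale for Adgrl4, 0.49 for Clec14a, 0.40 for Emcn and 0.33 for Myct1. Each sequence is the 250 bases before the annotated start, 5′ to 3′ on the gene's own strand. Capitals mark the letters AGGAAG on either strand, the only motif searched. These are 1 fixed form, 6 letters long, of an ETS-type site, and shorter or other forms were not searched. The windows lie at chr3:151437632-151437881 (plus strand) for Adgrl4, chr12:58269259-58269508 (minus strand) for Clec14a, chr3:137340828-137341077 (plus strand) for Emcn and chr10:5593478-5593727 (plus strand) for Myct1.
Adgrl4: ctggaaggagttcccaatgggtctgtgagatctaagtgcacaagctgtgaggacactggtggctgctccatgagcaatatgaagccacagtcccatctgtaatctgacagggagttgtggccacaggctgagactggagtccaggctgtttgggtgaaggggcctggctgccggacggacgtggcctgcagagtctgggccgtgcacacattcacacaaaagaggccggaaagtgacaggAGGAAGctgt
Clec14a: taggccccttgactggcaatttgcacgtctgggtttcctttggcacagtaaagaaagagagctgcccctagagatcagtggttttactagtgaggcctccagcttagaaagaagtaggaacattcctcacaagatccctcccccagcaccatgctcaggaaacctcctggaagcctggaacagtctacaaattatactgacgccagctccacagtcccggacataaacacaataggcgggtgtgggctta
Emcn: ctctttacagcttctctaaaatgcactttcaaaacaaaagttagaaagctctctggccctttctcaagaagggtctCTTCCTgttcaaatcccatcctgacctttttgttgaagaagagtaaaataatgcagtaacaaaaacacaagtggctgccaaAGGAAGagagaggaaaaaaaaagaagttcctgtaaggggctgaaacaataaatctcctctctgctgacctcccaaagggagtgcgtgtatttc
Myct1: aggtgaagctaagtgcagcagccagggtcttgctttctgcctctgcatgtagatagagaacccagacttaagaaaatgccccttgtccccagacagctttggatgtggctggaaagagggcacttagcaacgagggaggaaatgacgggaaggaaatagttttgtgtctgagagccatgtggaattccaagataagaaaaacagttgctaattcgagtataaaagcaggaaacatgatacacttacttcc
The Adgrl4 window holds 1 match, the Emcn window 2, and those of Clec14a and Myct1 hold 0. Windows were found for 19 of the 39 listed genes, 24 windows in all, of which 13 (54.2%) hold the letters, against 29.5% of all 32851 windows of this length. A match, or the lack of one, describes these letters only.

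Junction and adhesion genes were the subgroup with the highest median difference, 0.17, and 5 of the 7 were higher under TMP195. Without both vehicle tumour 2 and TMP195 tumour 2 this median was 0.017, and without vehicle tumour 2 alone it was 0.07. Cdh5, which encodes VE-cadherin, the core protein of endothelial adherens junctions, was 8.01, 7.66 and 8.13 in mice given vehicle against 8.14, 8.32 and 7.97 in mice given TMP195, in the order of tumours 1, 2 and 3, which is kept throughout. The groups overlapped, with the lowest value in vehicle tumour 2 and the highest in TMP195 tumour 2. The difference was 0.21 ± 0.15 (SE), and with single tumours left out it ran from 0.07 without vehicle tumour 2 to 0.30 without vehicle tumour 3. Cldn5, the main claudin of endothelial tight junctions, was 5.26, 5.18 and 5.30 with vehicle and 5.61, 5.56 and 5.20 with TMP195. TMP195 tumours 1 and 2 lay above every vehicle tumour and TMP195 tumour 3 lay among them (difference 0.21 ± 0.13 SE, unadjusted p = 0.145 in limma), and without TMP195 tumour 3 the difference was 0.34. Icam2, a constitutive ligand for leukocyte integrins, was 5.31, 5.21 and 5.19 under vehicle and 5.33, 5.55 and 5.47 under TMP195. Every TMP195 value was above every vehicle value though vehicle tumour 1 and TMP195 tumour 1 lay close together, and the difference was 0.21 ± 0.098 (SE, unadjusted p = 0.0685 in limma). Ecscr, a membrane protein of endothelial cells that takes part in their migration, was 6.47, 6.35 and 6.38 in mice given vehicle against 6.45, 6.83 and 6.45 in mice given TMP195. Its high value was confined to TMP195 tumour 2 among these 6 tumours, and without that tumour the difference of 0.17 ± 0.13 (SE) was 0.044.

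Pecam1, the platelet and endothelial adhesion molecule, was 7.19, 7.12 and 7.54 with vehicle and 7.53, 7.35 and 7.32 with TMP195, with vehicle tumour 3 and TMP195 tumour 1 highest. Esam, a junctional adhesion molecule, kept within 0.19 log2 units over all 6 tumours (5.82, 5.85 and 5.96 under vehicle and 5.92, 5.83 and 5.77 under TMP195). Ptprb, the phosphatase VE-PTP that restrains TIE2 and VE-cadherin phosphorylation, had the widest spread of the subgroup, at 6.67, 6.32 and 6.92 in mice given vehicle against 6.91, 5.94 and 6.59 in mice given TMP195. TMP195 tumour 2 was its lowest tumour and vehicle tumour 3 its highest, so within TMP195 tumour 2 Ptprb was lowest where Cdh5, Ecscr and Icam2 were highest. The Ptprb difference of -0.16 turned to 0.11 without TMP195 tumour 2.

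Among 10 genes of the luminal surface and membrane, 8 were higher under TMP195 with a median of 0.12, which was 0.006 without vehicle tumour 2 and 0.21 without vehicle tumour 3. Podxl, podocalyxin, a sialomucin that lines the lumen, was 7.09, 7.22 and 7.26 with vehicle and 7.31, 7.71 and 7.33 with TMP195. The groups did not overlap, TMP195 tumour 2 was highest, and the difference of 0.26 ± 0.13 (SE, unadjusted p = 0.0944 in limma) was 0.13 without it. Gpihbp1, the capillary anchor of lipoprotein lipase, was 5.55, 5.50 and 5.94 under vehicle and 5.89, 5.94 and 5.81 under TMP195. Vehicle tumours 1 and 2 were low and vehicle tumour 3 lay among the TMP195 tumours (difference 0.22 ± 0.13 SE, from 0.13 without vehicle tumour 2 to 0.35 without vehicle tumour 3). Cd93, a C-type lectin receptor of angiogenic endothelium, was 7.30, 6.91 and 7.32 in mice given vehicle against 7.35, 7.50 and 7.23 in mice given TMP195. Its lowest value was in vehicle tumour 2, and the difference of 0.18 ± 0.14 (SE) ran from 0.048 without vehicle tumour 2 to 0.25 without vehicle tumour 3.

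Emcn, the sialomucin endomucin of veins and capillaries, was 7.21, 6.63 and 6.89 with vehicle and 7.00, 7.06 and 6.97 with TMP195. Clec14a, a C-type lectin of tumour vessels, was 5.11, 4.48 and 4.87 under vehicle and 5.01, 4.86 and 4.99 under TMP195. Both had vehicle tumour 1 highest and vehicle tumour 2 lowest, with all TMP195 tumours between. Adgrl4, an adhesion G protein-coupled receptor also called ELTD1, was 6.76, 6.33 and 7.11 in mice given vehicle against 7.00, 6.64 and 6.78 in mice given TMP195, with its ends in vehicle tumours 2 and 3. Myct1, a membrane protein of endothelial cells, was 4.81, 4.59 and 4.98 with vehicle and 4.85, 4.76 and 5.24 with TMP195, with TMP195 tumour 3 highest.

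Plvap, which forms the diaphragms of fenestrated vessels, was 7.79, 8.04 and 8.16 under vehicle and 8.11, 7.66 and 8.08 under TMP195, and Cd34, a sialomucin of capillaries, was 7.58, 7.68 and 7.95 in mice given vehicle against 8.06, 7.56 and 7.78 in mice given TMP195. In both, TMP195 tumour 2 was the lowest of the 6. Robo4, a guidance receptor that stabilises vessels, was 5.85, 5.86 and 6.21 with vehicle and 6.11, 5.92 and 5.79 with TMP195, with overlapping groups.

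Of the 6 transcription factor genes 4 were lower under TMP195 and 2 higher, with a median of -0.094. Without vehicle tumour 3 that median was -0.035 with 3 of 6 higher. Sox17, a SOXF factor of arterial identity, was 3.80, 3.93 and 3.98 under vehicle and 3.72, 3.67 and 3.25 under TMP195. The groups did not overlap, and TMP195 tumour 3 was the lowest by a wide gap. The group means were 3.91 ± 0.091 (SD, n = 3) with DMSO and 3.55 ± 0.26 (SD, n = 3) with TMP195. They differed by -0.36 ± 0.14 (SE), and the 95% interval was -0.70 to -0.02 (unadjusted p = 0.0408 and adjusted p = 1.00 in limma). Without TMP195 tumour 3 the Sox17 difference was -0.21. Its probe set was dim, at percentile 26.1 of mean intensity over all genes, and was left out when genes below the 30th percentile were not fitted. The related SOXF genes did not share the pattern of Sox17 in every tumour. Sox18 was 5.94, 5.88 and 6.32 in mice given vehicle against 5.98, 5.88 and 5.88 in mice given TMP195, with vehicle tumour 3 above the other tumours, and Sox7 was 4.46, 4.52 and 4.53 with vehicle and 4.42, 4.75 and 4.50 with TMP195, with TMP195 tumour 2 highest.

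Erg, the ETS factor that maintains endothelial identity, was 5.81, 5.08 and 5.77 under vehicle and 5.71, 5.79 and 5.61 under TMP195. Its spread was set by vehicle tumour 2, which lay 0.66 below the mean of the other tumours, and the difference of 0.15 ± 0.20 (SE) ran from -0.089 without vehicle tumour 2 to 0.28 without vehicle tumour 1. Tal1, a basic helix-loop-helix factor of blood and endothelial development, was 5.16, 5.43 and 5.03 in mice given vehicle against 5.14, 5.12 and 5.19 in mice given TMP195, with vehicle tumour 2 highest, the reverse of Erg. Lyl1, its paralogue, was 5.90, 5.90 and 6.13 with vehicle and 5.94, 5.77 and 5.76 with TMP195. TMP195 tumours 2 and 3 were the lowest and the groups overlapped (difference -0.15 ± 0.11 SE), and without vehicle tumour 3 the difference was -0.074.

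Of 7 signalling receptors and effectors 2 were higher under TMP195 and 5 lower, with a median of -0.015. The count and the sign rested on single tumours, since 5 of the 7 were higher without vehicle tumour 3 (median 0.047) and also without TMP195 tumour 3 (median 0.027). Tie1, the orphan partner of the angiopoietin receptor TIE2, was 6.39, 6.14 and 6.43 under vehicle and 6.45, 6.38 and 6.51 under TMP195, with TMP195 tumour 3 highest and vehicle tumour 2 lowest (difference 0.13 ± 0.11 SE, and 0.041 without vehicle tumour 2). Nos3, endothelial nitric oxide synthase, was 4.57, 4.52 and 4.66 in mice given vehicle against 4.64, 4.63 and 4.75 in mice given TMP195 (difference 0.092 ± 0.089 SE, and 0.053 without TMP195 tumour 3 or 0.059 without vehicle tumour 2). Both had overlapping groups. Eng and Acvrl1 encode endoglin and ALK1, the endothelial co-receptor and receptor for BMP9 and BMP10. Eng was 7.86, 8.01 and 8.13 with vehicle and 8.04, 7.96 and 7.79 with TMP195. Acvrl1 was 7.64, 7.64 and 7.83 under vehicle and 7.64, 7.82 and 7.60 under TMP195. Neither separated the groups, with differences of -0.065 (95% interval -0.33 to 0.21) and -0.016 (-0.26 to 0.23), and the sign of each turned with some single tumours left out.

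S1pr1, the receptor through which sphingosine 1-phosphate tightens the barrier, was 5.82, 6.03 and 6.36 in mice given vehicle against 6.15, 6.08 and 5.93 in mice given TMP195, with its ends in vehicle tumours 1 and 3. Rasip1, a RAS-interacting protein needed for vessel lumens, kept within 0.21 log2 units (5.55, 5.72 and 5.51 with vehicle and 5.60, 5.57 and 5.56 with TMP195), with its highest value in vehicle tumour 2.

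Secreted factors included the ligand of a receptor on the list. Apln, the peptide apelin of sprouting tip cells, was 6.92, 7.25 and 7.20 under vehicle and 7.27, 7.35 and 7.43 under TMP195. All TMP195 values lay above all vehicle values, narrowly above vehicle tumour 2, and the difference was 0.23 ± 0.12 (SE, unadjusted p = 0.0922 in limma). Without vehicle tumour 1, its lowest tumour, the difference was 0.13. Its receptor gene Aplnr, from the signalling subgroup, was 6.72, 6.64 and 6.77 in mice given vehicle against 6.83, 6.26 and 6.71 in mice given TMP195. Aplnr did not follow its ligand, being lowest in TMP195 tumour 2, and its difference of -0.11 ran from -0.22 without TMP195 tumour 1 to 0.06 without TMP195 tumour 2.

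Vwf, the clotting factor stored in endothelial Weibel-Palade bodies, was 5.62, 5.27 and 5.80 with vehicle and 5.54, 5.15 and 5.19 with TMP195. TMP195 tumours 2 and 3 lay below every vehicle tumour, but TMP195 tumour 1 did not (difference -0.27 ± 0.17 SE, unadjusted p = 0.163 in limma). With single tumours left out the Vwf difference ran from -0.41 without vehicle tumour 2 to -0.15 without vehicle tumour 3. Esm1, endocan, a tip-cell proteoglycan, was 4.44, 5.10 and 4.10 under vehicle and 4.24, 4.70 and 4.61 under TMP195 and had the widest range of any member, 1.00, with both ends among vehicle tumours. It was highest in vehicle tumour 2, as were Tal1 and Rasip1 and no other member. Egfl7, a matrix-bound angiogenic factor, was 6.57, 6.40 and 6.56 in mice given vehicle against 6.63, 6.39 and 6.37 in mice given TMP195, and Mmrn2, a matrix ligand of CLEC14A and CD93, was 6.14, 6.12 and 6.23 with vehicle and 6.40, 6.20 and 6.13 with TMP195. Neither separated the groups. The median of the 5 secreted factors was -0.034, which turned to 0.064 without vehicle tumour 2 and to 0.0073 without TMP195 tumour 1.

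Of the 3 measured activation genes 1 was higher under TMP195 and 2 were lower, with a median of -0.14. The median ran from -0.23 without vehicle tumour 2 to -0.045 without TMP195 tumour 2. Sele, E-selectin, which endothelium makes on cytokine stimulation, was 5.01, 4.70 and 4.80 under vehicle and 4.71, 4.55 and 4.76 under TMP195, with a difference of -0.16 ± 0.12 (SE, unadjusted p = 0.197 in limma), and -0.078 without vehicle tumour 1. Icam1, the inducible integrin ligand, was 6.24, 6.34 and 6.39 in mice given vehicle against 6.26, 5.98 and 6.29 in mice given TMP195 (difference -0.14 ± 0.11 SE, and -0.045 without TMP195 tumour 2). For both genes TMP195 tumour 2 was lowest. Vcam1, the ligand of the integrin VLA-4, was 7.68, 6.95 and 7.80 with vehicle and 7.65, 7.17 and 7.64 with TMP195. Its low tumours were vehicle tumour 2 and TMP195 tumour 2, and its difference of 0.011 had a 95% interval of -0.57 to 0.60 and ran from -0.25 without vehicle tumour 2 to 0.17 without vehicle tumour 3.

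**Figure D4:**
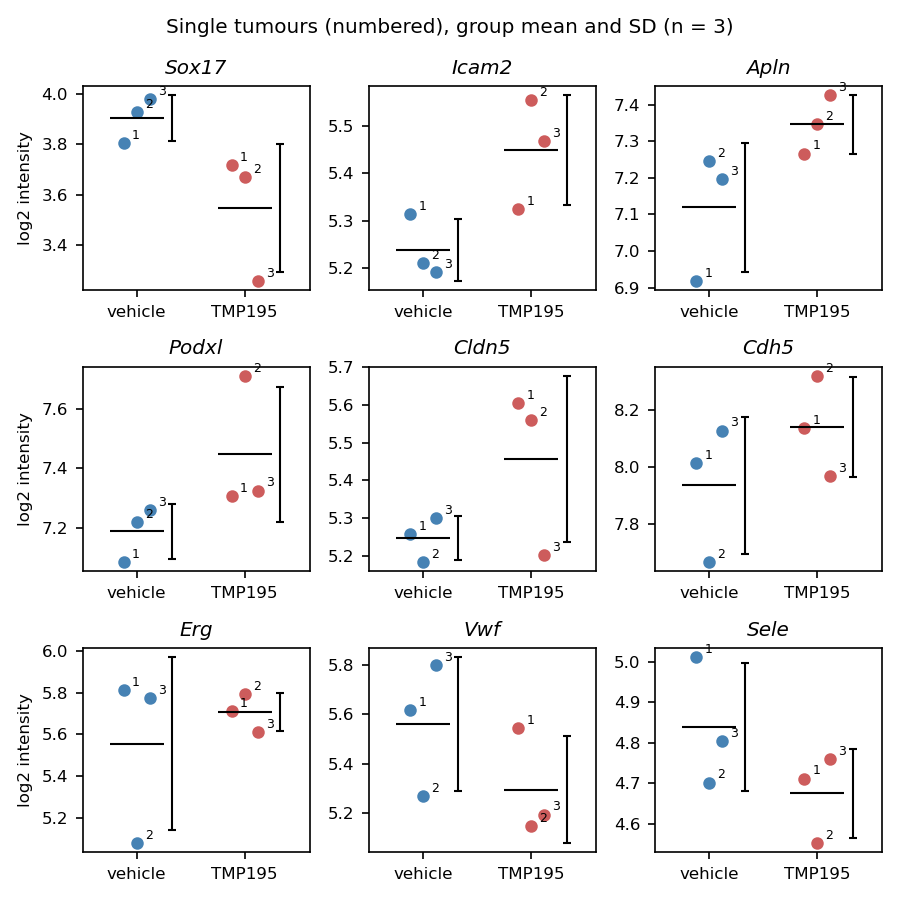
Log2 intensity (vertical axis) of 9 endothelial genes in single tumours (points, numbered by replicate), with the group mean as a horizontal line and ± 1 SD (n = 3) as a bar beside it. The groups do not overlap in Sox17, Icam2, Apln and Podxl; in Erg the low value is vehicle tumour 2 alone.

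Other endothelial genes were read the same way. Of 20 further genes listed for this cell type, 15 were higher under TMP195 and 5 lower, with a median of 0.12 that became 0.033 without TMP195 tumour 2. With array weights 10 of the 20 were higher. Whether endothelium alone made these transcripts was not tested. Some were brighter than Cdh5, with vehicle means of 9.40 for Palmd, 8.37 for Heg1 and 8.18 for Elk3 against 7.94 for Cdh5. In limma 0 passed an adjusted p of 0.05 and 1 had an unadjusted p under 0.05 (2.52% of all genes), and the groups did not overlap in 2 of the 20 (6.68% of all genes). Vehicle tumour 2 was lowest in 10 of the 20 (18.7% of all genes) and TMP195 tumour 2 highest in 10 (25.4% of all genes). Exoc3l2, an exocyst-related gene, had the smallest p of these (5.57, 5.33 and 5.31 under vehicle and 5.21, 4.80 and 4.96 under TMP195) and differed by -0.41 ± 0.14 (SE), lower in all TMP195 tumours. In Bcl6b, a transcriptional repressor of the vascular lineage, all TMP195 values were higher (0.32 ± 0.17 SE). The VEGF receptor gene Kdr was 7.10, 7.00 and 7.28 in mice given vehicle against 7.38, 7.36 and 7.22 in mice given TMP195, with vehicle tumour 2 lowest.

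Of 8 arterial genes 3 were higher and 5 lower, with a median of -0.034 that was 0.026 without vehicle tumour 1 and 0.025 without vehicle tumour 3, with 5 of 8 higher in each case. An unadjusted p under 0.05 in limma was reached by 2 of the 8 (2.52% of all genes), and the groups did not overlap in 3 (6.68% of all genes). Hey1, a Notch target, was 9.86, 9.45 and 10.07 with vehicle and 10.30, 10.79 and 10.52 with TMP195, all TMP195 values lying above all vehicle values (difference 0.74 ± 0.19 SE). Hey1 is not limited to endothelium, and its probe set was at percentile 97.5 of mean intensity over all genes. Notch4, an endothelial Notch receptor, was 5.67, 5.61 and 5.68 under vehicle and 5.96, 6.14 and 5.87 under TMP195, again higher in all TMP195 tumours (difference 0.34 ± 0.10 SE). Gja4, the arterial gap junction protein connexin-37, went the other way at 4.59, 4.55 and 4.68 in mice given vehicle against 4.55, 4.32 and 4.35 in mice given TMP195, lower in all TMP195 tumours, though TMP195 tumour 1 and vehicle tumour 2 were nearly equal (difference -0.20 ± 0.1 SE).

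Of 5 venous genes 2 were higher and 3 lower. In limma 1 had an unadjusted p under 0.05 (2.52% of all genes), and the groups did not overlap in 2 (6.68% of all genes). The gene with that p was Lrg1, an angiogenic glycoprotein also made by epithelium and liver, which was lower (-0.43 ± 0.16 SE, unadjusted p = 0.0307 in limma) with overlapping groups. The groups did not overlap in Ephb4, a receptor of venous identity, which was higher (0.19 ± 0.095 SE), and in Ackr1, a chemokine receptor of venules, which was lower (-0.19 ± 0.098 SE). Ackr1 was dim, at percentile 24.4 of mean intensity over all genes. The venous median of -0.035 was 0.058 when genes below the 30th percentile were not fitted. Of 6 measured lymphatic genes 1 was higher (3 of 6 without vehicle tumour 3). This was Flt4 (0.17 ± 0.13 SE), the only 1 of the 6 without overlap of the groups (6.68% of all genes), and narrowly so. Mmrn1 had the smallest p and differed by -0.49 ± 0.30 (SE), but was dim, at percentile 16.1 of mean intensity over all genes. None of the 8 genes of capillaries in fat and muscle was higher, and 3 differed by 1.5-fold or more (1.27% of all genes). These 3 were Cd36 (-1.23 ± 1.1 SE), Fabp4 (-1.17 ± 1.2 SE) and Aqp7 (-0.73 ± 0.74 SE). Fabp4 was 7.80, 6.48 and 9.62 under vehicle and 8.97, 4.64 and 6.79 under TMP195. The adipocyte marker Adipoq was 6.70, 5.02 and 8.62 under vehicle and 7.98, 3.93 and 5.29 under TMP195, with the tumours in the same order. Car4, a dim gene at percentile 26.0 of mean intensity, differed by -0.32 ± 0.18 (SE). Vehicle tumour 3 was highest in 6 of the 8 (10.5% of all genes) and TMP195 tumour 2 lowest in 6 (22.4%). The same tumours were highest in 10 and lowest in 9 of 10 adipocyte markers. The part of fat in these values was not tested. The median of those 8, -0.24, was -0.056 without TMP195 tumour 2, -0.071 without vehicle tumour 3 and -0.47 without TMP195 tumour 1.

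Markers of other tissues also differed between the tumours that were high and low in endothelial genes. Of 11 adipocyte markers 10 were measured. Their mean log2 intensity was 7.02, 6.21 and 8.29 under vehicle against 7.64, 5.26 and 6.12 under TMP195, highest in vehicle tumour 3 and TMP195 tumour 1, as were many endothelial genes. All 8 skeletal muscle markers were highest in vehicle tumour 2 (24.2% of all genes), with a list mean of 8.27 there and from 4.58 to 5.20 elsewhere. All 7 fibroblast markers were highest in vehicle tumour 3 (10.5% of all genes). Their list mean ran from 9.03 to 9.84 under vehicle and from 8.80 to 9.65 under TMP195. Of 9 measured cell division genes 8 were highest in vehicle tumour 2 (24.2% of all genes) and all 9 were lowest in TMP195 tumour 2 (22.4%). The part of these tissues and of dividing cells in the endothelial values was not tested.

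No gene of the other lists passed limma's adjusted p of 0.05. The counts of genes higher under TMP195 rested in part on single tumours. They were 0 of 8 for skeletal muscle, but 6 of 8 without vehicle tumour 2 (median -1.05 against 0.23). They were 0 of 9 for cell division, 2 of 9 without TMP195 tumour 2, and 9 of 9 without both that tumour and vehicle tumour 2. They were 1 of 7 for fibroblasts, 5 of 7 without vehicle tumour 3 and 4 of 7 without TMP195 tumour 2. They were 0 of 4 for smooth muscle and 3 of 4 without vehicle tumour 3. They were 0 of 10 for adipocytes, with 3 of 10 without vehicle tumour 3 (median -0.83 against -0.12), and 0 of 8 for macrophages, with 3 of 8 without TMP195 tumour 3. The counts were 5 of 10 for pericytes, 4 of 6 for T cells (2 of 6 without TMP195 tumour 2), 3 of 5 for platelets (1 of 5 without TMP195 tumour 2), 0 of 2 for red blood cells and 3 of 8 for mammary epithelium.

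An unadjusted p under 0.05 in limma was reached by 1 of 10 adipocyte genes, Lep (-1.01 ± 0.40 SE), and by 1 of 8 macrophage genes, the efferocytosis receptor Mertk (-0.47 ± 0.17 SE), against 2.52% of all genes, and by none of the other 9 lists just counted. The Lep probe set was dim, at percentile 26.9 of mean intensity over all genes. Among pericyte genes Des, which muscle also makes, had the smallest p at 4.18, 7.74 and 4.72 with vehicle and 4.36, 4.28 and 4.34 with TMP195. Its high value was vehicle tumour 2, the tumour in which all skeletal muscle markers were highest. The other 9 pericyte genes differed by -0.069 to 0.20, from Higd1b to Notch3, and the list median was -0.0033. The gene of smallest p differed by -0.29 ± 0.25 for smooth muscle (Myh11), -0.73 ± 0.55 for fibroblasts (Dpt) and -1.39 ± 0.93 for skeletal muscle (Myl1). It differed by -0.41 ± 0.25 for cell division (Mcm5), 0.18 ± 0.097 for T cells (Cd8b1), -0.11 ± 0.11 for platelets (Itga2b), -0.18 ± 0.12 for red blood cells (Alas2) and -0.28 ± 0.13 for mammary epithelium (Krt14). The groups did not overlap in Cd8b1, 1 of 6 T cell genes, and Krt14, 1 of 8 mammary epithelium genes (6.68% of all genes). They overlapped in every other gene of the lists just counted. Of the epithelial markers, Epcam was 10.05, 10.10 and 10.14 under vehicle and 10.07, 10.03 and 10.10 under TMP195. Krt18 was 11.01, 11.13 and 11.04 in mice given vehicle against 11.23, 11.01 and 10.97 in mice given TMP195. Differences over the 8 genes of that list ran from -0.51 to 0.053. Median intensity over all probe sets lay between 44.8 and 46.4 in the 6 arrays and each difference is limited in precision by the number of arrays, 3 against 3.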

How the data were processed

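Total RNA of 6 tumours was hybridised to Affymetrix arrays. The deposited values are probe set intensities, for which the submitters' processing notes name RMA and Affymetrix Power Tools without versions. The authors' scale is not stated and was taken as linear, since the values ran from 0.482 to 8873. Log2 was taken. Quantile normalization, usual in RMA, would hide a shift of most genes. Of 27359 probe sets, 21784 had 1 gene symbol, 1620 several and 3955 none; several-symbol sets were not named. The probe set with the highest mean stood for a gene, and every measured member had just 1.

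Differences were tested with limma 3.58.1 in R 4.3.3 (lmFit, eBayes, two-sided, no covariate, Benjamini-Hochberg over 19937 genes), after tests on simulated data. Python 3.11.15, pandas 2.3.3, numpy 2.4.6 and matplotlib 3.10.9 made tables and plots. Members and 17 other lists were chosen with earlier results of these data known. Named genes were every transcription factor and activation gene, the brightest and smallest-p members of each subgroup, and the smallest-p gene of each other list; the remaining measured members were added. Picked outside that rule, with their values known, were Kdr, Notch4, Gja4, Bcl6b, Ephb4, Ackr1, Flt4, Higd1b, Notch3, Pgf, Kcne3, Cxcr4, Unc5b, Epcam and Krt18. Cd36, Fabp4, Aqp7, Adipoq, Palmd, Heg1 and Elk3 were picked in the same way. The limma alternatives are listed in the closing section.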

Additional observations from a re-analysis of the deposited data

How the results depend on the processing

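The count of genes past an adjusted p of 0.05 in limma was 0 in every alternative run, which were cyclic loess, median centring, the replicate block, a robust prior with a trend, the 30th percentile filter, the dimmest probe set per gene, array weights, an adjusted p of 0.10 and leaving out tumours. At an unadjusted p under 0.05 these fits gave between 243 and 938 genes. The number of endothelial genes higher under TMP195 ran from 18 to 27 when single tumours were left out, and the list median from -0.027 to 0.10. A block by replicate number cannot change any difference in this balanced design, so its list median of 0.032 was fixed in advance. With that block 0 members had an unadjusted p under 0.05 in limma. Deviations of same-numbered tumours correlated at -0.21, -0.063 and -0.097, and those of differently numbered tumours ran from -0.18 to 0.34. With 3 tumours per group such values cannot show whether the numbers pair animals, which the labels do not say. Leaving out vehicle tumour 2 and TMP195 tumour 2 together turned the signs of 12 of the 38 members, among them Cdh5 (-0.019) and Cd93 (-0.021), and gave a list median of -0.020. With single tumours left out Cdh5 ran from 0.070 to 0.30, Cd93 from 0.048 to 0.25, Sox17 from -0.44 to -0.21, Podxl from 0.13 to 0.33, Icam2 from 0.16 to 0.27 and Apln from 0.13 to 0.29. Array weights turned 6 members, and median centring 2. Background correction was not varied, and how far a probe set lies above background was not assessed here.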

Other observations

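A list of sprouting endothelium genes outside the member list was also read, and in it Pgf and Kcne3 stood far apart in TMP195 tumour 2. All 10 measured genes of that list were higher under TMP195 (49.5% of all genes), with a median difference of 0.28 on the log2 scale. None passed an adjusted p of 0.05 or an unadjusted p under 0.05 in limma. The list was chosen with earlier results of these data known, so the count is a description only. Of the tip-cell genes on the member list, Apln was higher (0.23) and Esm1 lower (-0.034). TMP195 tumour 2 held the highest value of 7 of the 10, against 25.4% of all genes. Pgf, placental growth factor, a ligand of VEGFR1, was 7.45, 7.98 and 7.72 with vehicle and 8.21, 10.06 and 7.78 with TMP195. Kcne3, a potassium channel subunit, was 5.80, 6.22 and 6.01 under vehicle and 6.67, 8.31 and 5.98 under TMP195. Both were higher in TMP195 tumour 2 by more than any other gap between neighbouring tumours. Cxcr4, the CXCL12 receptor, was 8.04, 7.09 and 7.96 in mice given vehicle against 8.11, 8.54 and 8.08 in mice given TMP195, and Unc5b, a netrin receptor, was 6.05, 6.07 and 6.19 with vehicle and 6.23, 6.94 and 6.31 with TMP195, and in both the groups did not overlap (2 of the 10, against 6.68% of all genes). Col4a1, a basement membrane collagen, was 7.29, 7.27 and 7.67 under vehicle and 7.71, 7.86 and 7.57 under TMP195 and had the smallest p of the list (0.30 ± 0.14 SE, unadjusted p = 0.07 in limma). Without TMP195 tumour 2 the list median was 0.17. The count of higher genes was 8 of 10 without vehicle tumour 1, and 9 of 10 with array weights and when vehicle tumour 2 or either of TMP195 tumours 2 and 3 was left out. Some genes of this list are also made by epithelial or immune cells, and the cells that made these transcripts were not tested.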
